A study of Mus musculus with 28 samples.

Results

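Translation initiation and elongation factors were the genes of the count table whose name begins with Eif1 to Eif6, Eef1 or Eef2, apart from the eIF2 kinase genes and names that carry -ps. The name pattern fitted 85 of 55487 genes, and 68 remained after 4 Eif2ak genes and 13 -ps genes were set aside. By class they comprised 5 genes of eIF1 and eIF1A, 6 of eIF2, 5 of eIF2B, 14 of eIF3, 12 of eIF4, 4 inhibitors or partners of eIF4E, 5 of eIF5, eIF5A, eIF5B and eIF6, 6 of eEF1, eEF2 with its kinase, and 6 lysine methyltransferases, with 3 further names (Eif4a3l1, Eif4a3l2 and Eif2c5) of which almost no reads were counted. A count was present in every library for 62 of the 68. The mean of both fractions was at least 10 CPM (counts per 1000000 counts of the library, scaled by TMM) for 57 members, at least 100 CPM for 26 and under 1 CPM for 7.

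The libraries came from hypothalami of LepRbeGFP-L10a mice, in which cells with the long leptin receptor isoform carry ribosomal protein L10a fused to eGFP, so that all groups share the reporter. Wild type below means these mice without the Lep ob mutation, and ob/ob means LepRbeGFP-L10a;Lepob/ob mice, which lack functional leptin. Per the labels' protocols, males and females aged 10 to 13 weeks had food removed at light onset and were given metreleptin (5 mg/kg, intraperitoneal), a leptin analogue, or vehicle, which the protocol calls 0.9% saline and the treatment labels PBS. Tissue was taken 3 or 10 h later, and antibodies against GFP pulled tagged ribosomes with their RNA onto beads (bead RNA). The remaining liquid gave the depleted RNA. Each of the 14 lysates therefore gave 1 bead and 1 depleted library, 28 in all: 7 lysates were from wild type at 3 h (4 given vehicle, 3 leptin), 4 from wild type at 10 h (1 given vehicle, 3 leptin) and 3 from ob/ob at 10 h (2 given vehicle, 1 leptin). How many mice went into a lysate was not stated in the labels. Each of these strata was sequenced in a run of its own, so time, genotype and run cannot be told apart, whereas leptin and vehicle were compared within a run.

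Initiation begins when eIF1, eIF1A, eIF3, eIF5 and the eIF2-GTP-initiator tRNA complex load onto the small ribosomal subunit, and eIF4E, eIF4G and the helicase eIF4A bring that subunit to the capped end of the mRNA. eIF2B recharges eIF2 with GTP, eIF5B joins the large subunit, eEF1A delivers aminoacyl-tRNA during elongation, eEF1B recharges eEF1A, and eEF2 moves the ribosome along. Several of these mRNAs begin with a run of pyrimidines in cultured mammalian cells (terminal oligopyrimidine, TOP, transcripts), a class whose translation follows mTORC1, and eEF1A2, found in neurons and muscle, and eIF5A2 are paralogues of the widely made eEF1A1 and eIF5A.

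Bead libraries held between 21277982 and 42267040 counts, and depleted ones between 19649105 and 41804049. The captured cells were checked with marker lists. All 36 glial markers were lower in beads, and the glial index, the mean log2 CPM of these markers, was 3.46 to 5.26 in beads and 5.44 to 6.04 in depleted RNA. All 10 markers of leptin receptor neurons were higher in beads, with Lepr itself at 6.52 to 12.4 CPM against 1.45 to 3.15. Of 10 general neuron markers 6 were higher and 3 lower in beads, with sums of 8859 to 10520 CPM against 8361 to 9616 CPM, and of 12 endothelial and mural markers 3 were higher and 4 lower. Lysates m3 and f2 of the 3 h stratum and the only ob/ob leptin lysate held pituitary transcripts, with Gh, the growth hormone gene, at 57.5, 539 and 22.5 CPM in beads and 233, 1268 and 121 CPM in depleted RNA, and at most 0.613 CPM in beads and 50 counts in depleted RNA of any other lysate. The summed pituitary markers ran from 63.7 to 2098 CPM in beads and from 9.62 to 3538 CPM in depleted RNA. That list includes Pomc, which is also on the list of leptin receptor neurons, so the sum is not pituitary RNA alone. Of its 5 measured markers 1 was higher and 4 were lower in beads. In bulk RNA of this kind, fewer cells of a type and less RNA per cell cannot be told apart.

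The sequences at the start of these genes are shown because the TOP class is defined there. For 51 of the 68 members a RefSeq promoter of GRCm38.p6 was matched, and 30 bases of the gene's strand were read, 15 before and 15 from the annotated first base. Capitals mark the longest run of C or T. Eef1a1, Eif3f and Eef2 are on the TOP list, Eef1b2 is too and had the largest rise in beads, Eif2b5 had the longest run among those shown, and Eef1a2, Eif5a2 and Eif1ax are the paralogues or falls described later.
Eef1a1, chr9:78481710-78481739, minus strand: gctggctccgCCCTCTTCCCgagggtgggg
Eif3f, chr7:108934400-108934429, plus strand: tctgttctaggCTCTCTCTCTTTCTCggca
Eif2b5, chr16:20498802-20498831, plus strand: CCTTCCTCTTTCTCTCCCTgcaactacacc
Eef1b2, chr1:63176816-63176845, plus strand: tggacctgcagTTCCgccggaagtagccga
Eef2, chr10:81176616-81176645, plus strand: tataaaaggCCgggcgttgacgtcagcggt
Eef1a2, chr2:181157001-181157030, minus strand: TCTCTCCTggtctgcgttctcgctcactgg
Eif5a2, chr3:28781262-28781291, plus strand: ggcgggCCCgggctgggcgggccggggcgg
Eif1ax, chrX:159372163-159372192, plus strand: gaggaggaggagggcggggagaagCCCCgc

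A run of at least 8 C or T on the gene's strand was found in 11 of the 51 windows (21.6%) and in 3943 of all 32851 promoter windows of the table (12.0%). It was present in 2 of the 5 matched members of the TOP list (40.0%) and in 9 of the 46 others (19.6%). In Eef1a1 and Eif3f the run crossed the annotated first base, and it also did in members off the list, among them Eif2b5, Eif2s3x and Eif3l. In Eef1b2 and Eef2, which are on the list, the longest run was 4 and 2 bases in this window. A match is a description of letters at one annotated start, and the start used in hypothalamus was not measured.

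Transcripts of these factors were abundant in both fractions. Per kilobase of exon, Eef1a2 was highest in beads at 689 CPM per kb, followed by Eef1a1 at 626, Eef2 at 573, Eif1b at 248 and Eif5a at 190. In depleted RNA the order was Eef1a2 at 533 CPM per kb, Eef2 at 420, Eef1a1 at 340, Eif1b at 143 and Eif5a at 124. Eef1a1 thus stood after Eef2 in depleted RNA and before it in beads. Summed over the members, levels were 11708.5 to 16141.8 CPM in beads (mean 14449.9 ± 1143 SD, n = 14) and 9939 to 11201 CPM in depleted RNA (mean 10592.6 ± 333 SD, n = 14), with no overlap. The 5 most abundant members, Eef2, Eef1a1, Eef1a2, Eif4g2 and Eif4a2, made up 48.2% of that sum in beads and 47.4% in depleted RNA.

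Most translation factors were higher in bead RNA than in the depleted RNA of the same lysate. Of 64 members with enough counts to test, 52 were higher in beads, 5 were lower and 7 did not pass the threshold of an adjusted p of 0.05 (edgeR quasi-likelihood test, lysate as block). Across all 19682 genes tested, 38.6% were higher and 39.3% were lower. The median log2 difference was 0.39 over the members and -0.01 over all genes, whose 75th percentile was 0.37. Scaling by library totals instead of TMM moved the all-gene median by -0.18, and then 41 members were higher and 11 lower, while among all called genes the share that was higher fell from 49.6% to 35.2%. The members' median stood 0.39 above the all-gene median under either scaling, and 55 of 64 members lay above it under both. Because a change of scaling moves every gene by nearly the same amount, this could hardly have come out otherwise. It is no check of the scaling. A total of 37 members were higher in beads in all 14 lysates, 4 were lower in all 14, and for 18 the lowest bead library exceeded the highest depleted one. The same counts were not taken over all genes, most of which were called, so they do not set the members apart. Without lysates m3 and f2, 51 members were higher and 5 lower, without these and the ob/ob leptin lysate 50 and 5, and without lysate f1, whose beads held the most glial RNA, 52 and 6.

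**Figure D1:**
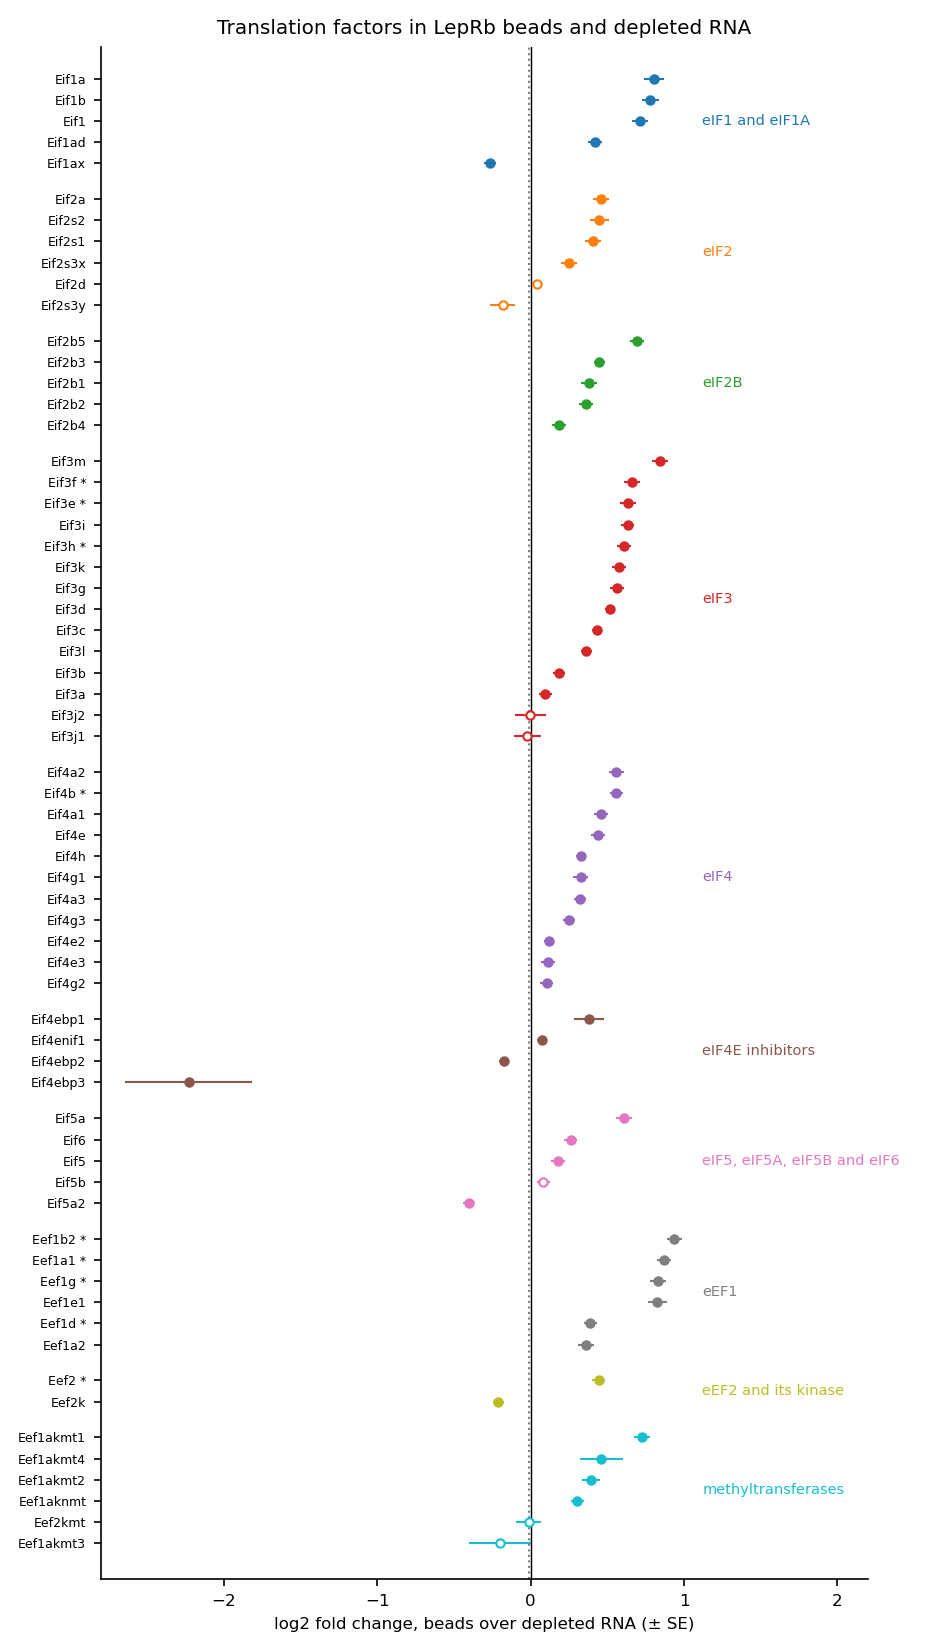
Log2 bead over depleted RNA with its standard error for the members tested, grouped by class, from the edgeR fit over 14 lysates. Filled points passed an adjusted p of 0.05, an asterisk marks the TOP list, and the dotted line is the all-gene median of -0.01. All 6 eEF1 genes lie to the right of it, and Eif5a2, Eif1ax, Eef2k and Eif4ebp2 lie to the left.

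All 6 genes of the elongation factor class eEF1 were higher in beads, with a median log2 difference of 0.83, and Eef1b2 and Eef1a1 showed the 2 largest rises of all members. Eef1b2, the eEF1B subunit that exchanges the nucleotide of eEF1A, had 279.8, 413.2 and 502.3 CPM as the lowest, median and highest of the 14 bead libraries and 196.7, 211.4 and 227.5 CPM in depleted RNA. Every bead library was above every depleted one. Its log2 difference was 0.94 ± 0.05 (SE; edgeR adjusted p = 2.4e-12). Eef1a1, the widely made aminoacyl-tRNA carrier, had 1092, 1562 and 1901 CPM in beads against 788.3, 840.1 and 948.4, again without overlap, with a log2 difference of 0.87 ± 0.05 (edgeR adjusted p = 2.5e-12). Eef1g and Eef1d, the other eEF1B subunits, differed by 0.83 ± 0.05 and 0.39 ± 0.04 on the log2 scale. Eef1e1, which encodes an auxiliary protein of the aminoacyl-tRNA synthetase complex, differed by 0.83 ± 0.06. Eef1a2, the eEF1A paralogue of neurons and muscle, differed least of the 6, by 0.36 ± 0.05, below the median of all members. Reads of Eef1a1 and Eef1g are the least certain of these, because 40.4% and 44.2% of the 50-base windows of their exons also occur in other genes of the annotation.

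Eef2, the translocase, was the most abundant member in CPM. Its lowest, median and highest bead libraries held 1452, 1963 and 2191 CPM, and its depleted libraries 1254, 1400 and 1620 CPM. It was higher in beads in 14 of 14 lysates although the ranges overlapped, with a log2 difference of 0.44 ± 0.04. Eef2k, the kinase that inhibits eEF2, went the other way, from 30.7 ± 1.45 CPM (SD, n = 14) in depleted RNA to 26.5 ± 1.69 in beads. It was lower in 14 of 14 lysates and fell by 0.21 on the log2 scale (SE 0.04, edgeR adjusted p = 2.0e-05).

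**Figure D2:**
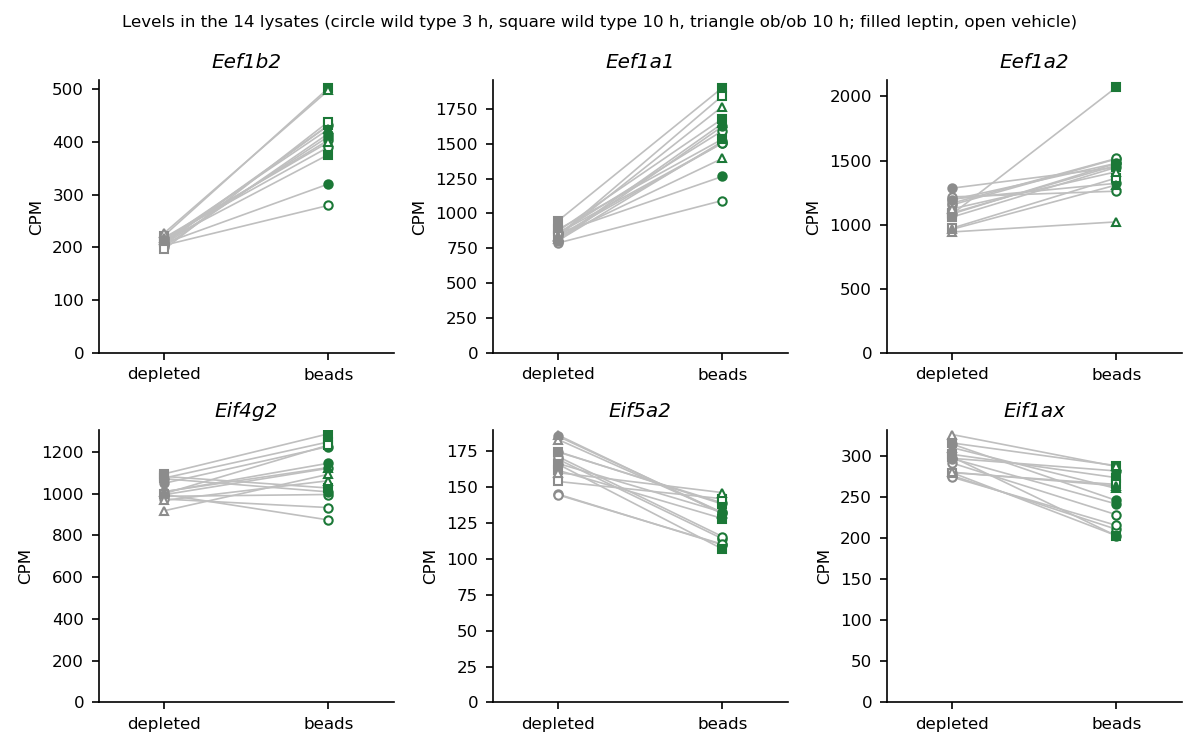
CPM in depleted and bead RNA for Eef1b2, Eef1a1, Eef1a2, Eif4g2, Eif5a2 and Eif1ax, with a line for each of the 14 lysates, symbols by stratum and filled symbols for leptin. Lines rise in all 14 lysates for Eef1b2, Eef1a1 and Eef1a2 and fall in all 14 for Eif5a2 and Eif1ax, while Eif4g2 rises in 10 of 14.

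Of the 5 genes grouped under eIF1 and eIF1A, factors of start codon selection, 4 were higher in beads. One of these is Eif1ad, named for an eIF1A-like domain, at 0.42 ± 0.05. Eif1a, which encodes eIF1A, rose from 97.4 ± 5.91 CPM (SD, n = 14) in depleted RNA to 173 ± 35.5 in beads, a log2 difference of 0.80 ± 0.07. Eif1b and Eif1, the paired genes of the start-codon fidelity factor eIF1, differed by 0.78 ± 0.06 and 0.71 ± 0.05 with no overlap of bead and depleted libraries. Eif1ax, the X-linked gene for eIF1A, was lower: 202.7, 253 and 288.1 CPM were the lowest, median and highest bead values and 274, 296.8 and 325.9 CPM those of depleted RNA. It was lower in all 14 lysates, by -0.26 ± 0.04 on the log2 scale (edgeR adjusted p = 6.4e-06), although the ranges overlapped. The pair of eIF1A genes thus differed in opposite directions.

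The eIF2 subunits and their exchange factor were higher in beads by smaller amounts. Eif2s1 and Eif2s2, the alpha and beta subunits, differed by 0.40 ± 0.05 and 0.45 ± 0.06, and Eif2a, an alternative initiator tRNA factor unrelated to the alpha subunit, by 0.46 ± 0.05. Eif2s3x, the X-linked gamma subunit, differed by 0.25 ± 0.05, which lost its call when libraries were scaled by their totals (log2 0.07, adjusted p = 0.181). Its Y-linked partner Eif2s3y gave -0.18 ± 0.08 (edgeR adjusted p = 0.051) and Eif2d, a factor for non-canonical initiation and recycling, 0.04 ± 0.03, and neither passed. All 5 genes of eIF2B were higher, from 0.19 ± 0.04 for Eif2b4 to 0.69 ± 0.05 for the catalytic subunit gene Eif2b5. Eif2b5 had 86.13, 109.5 and 131.9 CPM as lowest, median and highest bead values and 64.58, 67.49 and 70.88 CPM in depleted RNA, with no overlap.

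Among the 14 genes of eIF3, the scaffold that holds the small subunit and its partners, 12 were higher and none lower, with a median log2 difference of 0.54. The largest was Eif3m at 0.84 ± 0.05 (93.6 ± 16.9 against 51.5 ± 3.29 CPM, SD, n = 14), followed by Eif3f at 0.66 ± 0.05, Eif3e and Eif3i at 0.63 and Eif3h at 0.61. The core subunits Eif3a and Eif3b showed the smallest differences that passed, 0.10 ± 0.04 and 0.18 ± 0.04, with Eif3a higher in 10 of 14 lysates. Subunits of one complex therefore differed in their bead-to-depleted ratios. Eif3j1 and Eif3j2 did not pass, and since 50.9% and 91.8% of their 50-base windows are shared with another gene, largely each other, their counts cannot be assigned with confidence.

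In the eIF4 class, a grouping by gene name and not by complex, all 11 tested genes were higher in beads. The helicase genes Eif4a2 and Eif4a1 differed by 0.56 ± 0.05 and 0.46 ± 0.05, their cofactor Eif4b by 0.56 ± 0.04 and Eif4h by 0.33 ± 0.03. Eif4e, the cap-binding protein, rose from 103 ± 4.20 CPM (SD, n = 14) in depleted RNA to 140 ± 19.2 in beads, by 0.44 ± 0.05, whereas its homologue Eif4e2 differed by 0.12 ± 0.03. The scaffold genes Eif4g1 and Eif4g3 differed by 0.33 ± 0.05 and 0.25 ± 0.04. Eif4g2, which encodes the scaffold relative that lacks the eIF4E-binding site, had 1098 ± 123 CPM in beads against 1016 ± 51.1, a log2 difference of 0.11 ± 0.04 (edgeR adjusted p = 0.024). That call is weak: library totals gave -0.07 for Eif4g2 and -0.06 for Eif4e2, and RLE size factors, DESeq2, no filter, a stricter filter, vehicle lysates alone or leaving out either of 2 lysates (the wild-type 10 h vehicle lysate and the ob/ob vehicle lysate 2) also took Eif4g2 out of the call, as the stricter filter and vehicle lysates alone did for Eif4e2.

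The eIF4E inhibitors did not move together. Eif4ebp2, the form best known in brain, fell from 94.8 ± 6.84 CPM (SD, n = 14) in depleted RNA to 84.0 ± 4.55 in beads, by -0.17 ± 0.03 on the log2 scale and in 14 of 14 lysates. Eif4ebp1 was higher by 0.38 ± 0.10 at low level, 1.93 against 1.47 CPM, and Eif4enif1, the nuclear shuttle of eIF4E, was higher by 0.07 ± 0.03. Eif4ebp3 had the largest fall, 0.277 to 0.0577 CPM and -2.23 ± 0.41, but it was near the floor of 3 counts per library and 65.5% of its 50-base windows occur in another gene.

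In the class of eIF5, eIF5A, eIF5B and eIF6, Eif5a rose and its paralogue Eif5a2 fell. Eif5a, the hypusine-carrying factor that relieves stalled ribosomes, differed by 0.61 ± 0.05 and its bead libraries (331.1 to 581.2 CPM) did not overlap the depleted ones (271.3 to 314.2 CPM). Eif5a2 had 106.9, 131.7 and 146.1 CPM as lowest, median and highest bead values and 144.5, 167.8 and 186.1 CPM in depleted RNA. It was lower in all 14 lysates, a fall of 1.32-fold (log2 -0.40 ± 0.04, edgeR adjusted p = 2.3e-08), and the ranges overlapped only at their ends. Eif6 and Eif5 were higher by 0.26 ± 0.04 and 0.18 ± 0.05, and Eif5b, at 0.08 ± 0.04, did not pass. Of the methyltransferases that modify eEF1A or eEF2, 4 of 6 were higher, led by Eef1akmt1 at 0.72 ± 0.05, while Eef1akmt3 and Eef2kmt did not pass.

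All 9 members of the TOP list (Eef1a1, Eef1b2, Eef1d, Eef1g, Eef2, Eif3e, Eif3f, Eif3h and Eif4b) were higher, with a median log2 difference of 0.63. The 55 tested members off the list had a median of 0.36, with 43 higher, 5 lower and 7 that did not pass. Across members, shorter exon length went with a larger bead-to-depleted difference once Eif4ebp3 was left out (r = -0.42, Spearman rho = -0.43, 63 genes), and over all 19660 genes with a length r was -0.06 and rho -0.15. With Eif4ebp3 kept, r was -0.02 and rho -0.36 (64 genes). Higher mean log2 CPM also went with a larger difference, with r = 0.52 over 64 members, 0.34 without Eif4ebp3 and 0.32 over all 19660 genes. The all-gene shares were not matched for level. These correlations describe genes that share libraries and are not independent replicates.

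Lysates differed in how far the factors rose. The median log2 bead-to-depleted ratio over the members was 0.11 in the wild-type 3 h vehicle lysate f1, where 41 of 64 members were higher in beads, and 0.51 in the first wild-type 10 h leptin lysate, where 58 of 64 were. Lysate f1 also had the highest glial index in beads, 5.26, and that 10 h lysate the lowest, 3.46. The part of glial RNA in these differences was not tested, and the members' median was above 0 in all 14 lysates.

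Paralogue shares within each lysate do not depend on how libraries are scaled, and they differed between fractions. The first 60 coding bases of both eEF1A genes and both eIF5A genes are shown (GRCm38, capitals mark bases that differ from the partner), since reads can be told apart only where such differences fall.
Eef1a1, chr9:78480595-78480654, minus strand: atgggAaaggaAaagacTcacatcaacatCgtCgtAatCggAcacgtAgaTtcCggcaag
Eef1a2, chr2:181155347-181155406, minus strand: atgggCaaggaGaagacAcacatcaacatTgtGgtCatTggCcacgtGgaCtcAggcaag
Eif5a, chr11:69919256-69919315, minus strand: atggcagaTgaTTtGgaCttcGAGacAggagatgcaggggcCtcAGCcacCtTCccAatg
Eif5a2, chr3:28782052-28782111, plus strand: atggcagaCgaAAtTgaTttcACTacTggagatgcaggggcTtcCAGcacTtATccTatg

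The eEF1A genes differed at 11 of these 60 bases and were 80.3% identical over the coding sequence, and the eIF5A genes differed at 17 and were 73.8% identical. Eef1a2 took 47.9% ± 4.58 (SD, n = 14) of the counts of both eEF1A genes in beads and 56.65% ± 2.69 in depleted RNA, so that eEF1A1 counts exceeded eEF1A2 counts in beads on average. The share was lower in beads in 13 of 14 lysates (exact sign-flip permutation test, two-sided, p = 0.000244, adjusted over 8 shares 0.000488), the exception being the third wild-type 10 h leptin lysate, whose bead share of 57.48% was the highest. Eif5a2 took 22.2% ± 3.43 of the counts of both eIF5A genes in beads and 36.3% ± 1.94 in depleted RNA. Its share was lower in 14 of 14 lysates (exact p = 0.000122, the smallest this permutation test can give, adjusted 0.000326), and no bead library reached the lowest depleted one. Corrected for exon length, the Eif5a2 share was 11.9% against 21.2% and the Eef1a2 share 52.3% against 61.0%.

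Eif4e2 took 41.3% of the counts of Eif4e and Eif4e2 in beads and 46.7% in depleted RNA, lower in 14 of 14 lysates, and Eif4ebp2 took 97.8% against 98.5% of those of Eif4ebp1 and Eif4ebp2, also lower in 14 of 14 (exact permutation p = 0.000122 for both). The Eif1b share of Eif1 and Eif1b rose by 1.18 percentage points (11 of 14 lysates), the Eif4a2 share of the eIF4A genes by 0.385 points (11 of 14) and the Eif4g3 share of Eif4g1 and Eif4g3 fell by 1.29 points (10 of 14), with adjusted exact permutation p of 0.00547, 0.012 and 0.00781. The Eif4g2 share of the 3 scaffold genes, 68.5% ± 5.37 against 71.4% ± 1.44, was lower in 9 of 14 (exact permutation p = 0.0311).

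**Figure D3:**
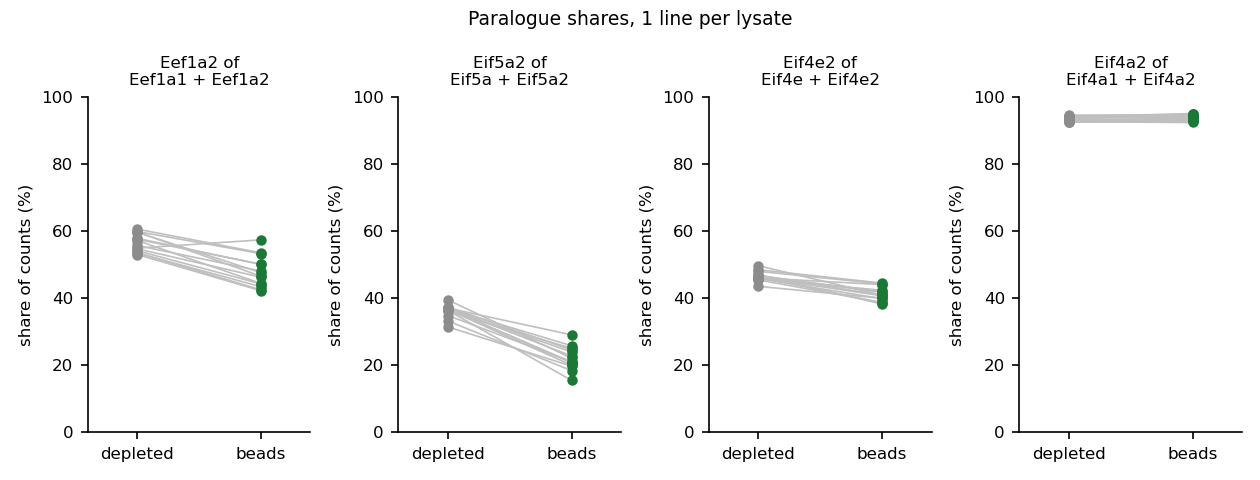
Share of a paralogue in the counts of its set, in percent, in depleted and bead RNA of each of the 14 lysates, for Eef1a2, Eif5a2, Eif4e2 and Eif4a2. Eif5a2 and Eif4e2 fall in every lysate, Eef1a2 falls in 13, and Eif4a2 stays between 92.5% and 95.2%.

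Other genes of the pathway, which are not members, gave mixed counts. All 6 termination and rescue genes were higher in beads, among them Gspt2, the eRF3b release factor, at 0.75 ± 0.04, and Etf1, which encodes eRF1, at 0.46 ± 0.04. Both enzymes that make hypusine on eIF5A, Dhps and Dohh, were higher by 0.64 ± 0.05 and 0.63 ± 0.06. Of the 7 eIF2 kinase and phosphatase genes, 4 were higher (Impact, an inhibitor of the kinase GCN2, at 0.72) and 3 lower (Eif2ak4, GCN2 itself, at -0.36). Of 15 genes of mTORC1 and the eIF4E kinases, 6 were higher, with Rheb at 0.63, and 8 lower, with Ddit4 at -0.61 and Mtor at -0.58. Of 5 poly(A)-binding proteins and partners, 4 were higher and Pabpc1 was lower by -0.09 ± 0.04. Of 10 other genes tied to initiation 7 were higher and 3 lower, namely Fmr1 at -0.69, Cyfip1 at -0.70 and Cyfip2 at -0.19. Of 7 mitochondrial and selenocysteine factors 5 were higher and 1 lower.

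Leptin changed no translation factor past the threshold in either fraction (edgeR adjusted p of 0.05). In beads, the call rate over all genes was 0.022% at 3 h, at 10 h and for the effect shared by all strata. In depleted RNA it was 0.0% at 3 h, 0.00523% at 10 h and 0.623% for the shared effect. An unadjusted p under 0.05 was found for 3, 1 and 3 of 63 members in beads and for 1, 3 and 3 of 64 in depleted RNA, and limma voom called none. Over all genes it was found for 1363, 1656 and 2012 of 18212 in beads. In depleted RNA it was found for 1813, 1717 and 3007 of 19115. DESeq2 called 1 member, Eif4g2 for the shared effect in depleted RNA (DESeq2 log2 0.08, adjusted p = 0.0123), where edgeR gave 0.08 with an adjusted p of 0.149. For members at 10 CPM or more, the median SE of the log2 leptin difference was 0.126 at 3 h, 0.139 at 10 h and 0.089 for the shared effect in beads, and 0.0543, 0.06 and 0.0396 in depleted RNA.

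The shared leptin difference in beads was positive for 52 of 63 members and 51.6% of all genes, with a median log2 of 0.07 against 0.01. In depleted RNA it was positive for 47 of 64 members and 51.9% of all genes, with a median of 0.03 against 0.00. Glial markers moved in the same libraries: the bead glial index averaged 4.66 in vehicle and 4.24 in leptin at 3 h, 4.45 and 3.62 in wild type at 10 h, and 4.54 and 3.76 in ob/ob. With that index as a covariate the shared difference of Eif1a, the smallest p in beads, was 0.10 instead of 0.36. The index averaged lower with leptin in every stratum, so this fit cannot separate glial RNA from leptin. The part of glial RNA in the leptin differences was not tested.

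Eif1a in beads held 139.4, 178.6, 105.7 and 133.0 CPM in the 4 wild-type 3 h vehicle libraries and 222.5, 144.1 and 203.7 CPM in the 3 leptin ones. It held 175.2 CPM with vehicle against 222.0, 203.2 and 172.0 CPM with leptin in wild type at 10 h, and 153.3 and 165.6 CPM against 206.9 CPM in ob/ob. The highest value of each stratum was a leptin library, and the groups overlapped at 3 h and in wild type at 10 h. By title letter, the 3 h vehicle values were 139.4 and 178.6 CPM with m and 105.7 and 133.0 CPM with f. The leptin values were 222.5 CPM with m and 144.1 and 203.7 CPM with f, above vehicle within each letter. Between f and m Eif1a differed by -0.40 ± 0.14 in beads (edgeR adjusted p = 0.303), and the leptin fits held no term for the letter. In depleted RNA all libraries lay between 89.8 and 107.5 CPM. The log2 difference in beads was 0.36 ± 0.12 for the shared effect (edgeR adjusted p = 0.296) and 0.45 ± 0.16 at 3 h (adjusted p = 0.656). Without lysates m3 and f2 it passed at 3 h (0.75, adjusted p = 0.0486) and for the shared effect (0.48, adjusted p = 0.0329). Without the ob/ob leptin lysate as well, so that no lysate with pituitary transcripts remained, neither passed (0.75, adjusted p = 0.0506, and 0.52, adjusted p = 0.0547, an alternative chosen after seeing the data). With no filter on low counts the shared effect passed (adjusted p = 0.00705). The leptin effect did not differ past the threshold between fractions for any member (0 called by edgeR, with DESeq2 and voom also at 0, call rate over all genes 0.0305%). For that contrast an unadjusted edgeR p under 0.05 was found for 2 of 64 members and for 1052 of all 19682 genes.

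**Figure D4:**
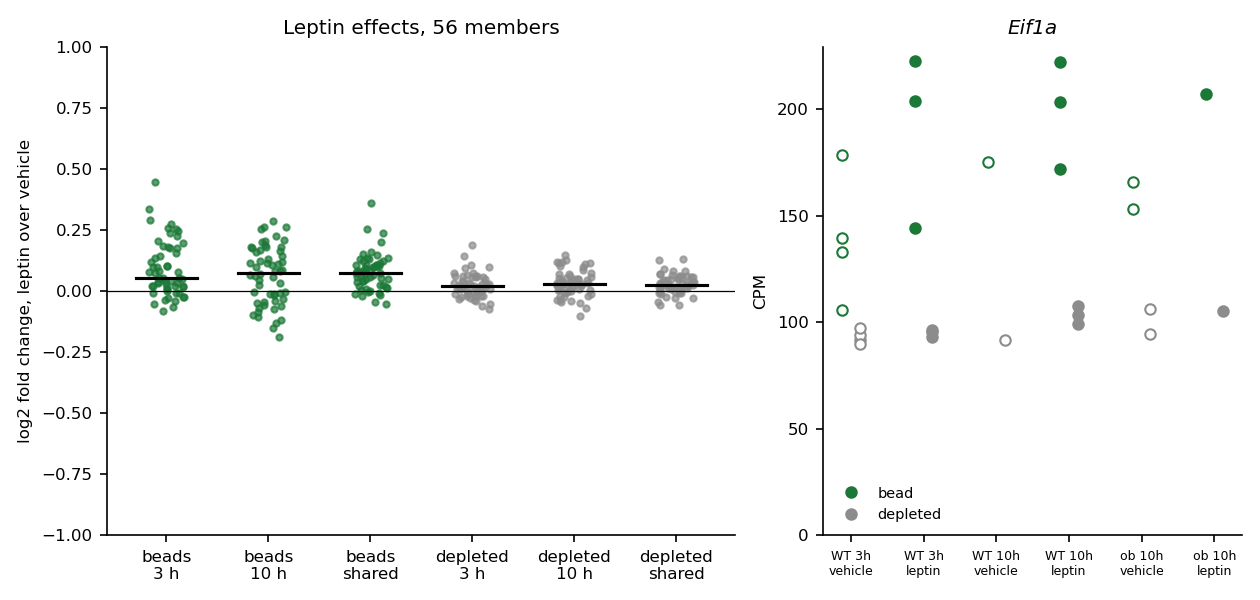
Left, log2 leptin over vehicle for 56 members of at least 10 CPM (Eif2s3y left out) in beads and depleted RNA at 3 h, at 10 h and shared, with the median as a line. Right, Eif1a CPM in every library by group. Points spread wider in beads than in depleted RNA, and no member passed an adjusted p of 0.05.

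The members with the next smallest p in beads were Eif5a2 and Eif1ax at 3 h (both 0.26 on the log2 scale), Eif2b2 at 10 h (0.29) and Eif3c and Eef1e1 for the shared effect (0.15 and 0.26). In depleted RNA they were Eef2 at 3 h (0.11), Eif4g2 at 10 h (0.10) and Eif5a2 for the shared effect (0.13). Eif4ebp1, which encodes an eIF4E inhibitor, was the gene of smallest p among the falls for the shared effect in both fractions, at -0.18 ± 0.19 in beads and -0.23 ± 0.13 in depleted RNA, and did not pass. No gene of the 7 other pathway lists passed for leptin.

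Between the strata, members differed in depleted RNA. Wild type at 10 h against 3 h had 4 members higher and 8 lower, where 3.17% of all genes were higher and 4.01% lower. Eif4a2 was 588.2 ± 15.03 CPM (SD, n = 4) and 619.5 ± 19.8 (SD, n = 3) in vehicle and leptin at 3 h, and 663.9 CPM (1 library) and 721.4 ± 25.6 (SD, n = 3) at 10 h. Its log2 difference was 0.20 ± 0.04 (edgeR adjusted p = 0.0077), and every 10 h library was above every 3 h one. Eif3e, Eef1akmt2 and Eif2a were also higher, by 0.21, 0.20 and 0.17. Eif1 was lower by -0.28 ± 0.05 (adjusted p = 0.007), from 154.7 and 155.9 CPM in vehicle and leptin at 3 h to 124 and 130.2 CPM at 10 h. Eef1d, Eif1b, Eef1a2, Eif3g, Eef2, Eif3k and Eif6 were lower by -0.16 to -0.21. In beads none passed (0.0% of 18212 genes were called by edgeR, DESeq2 called 2 members, Eif2a and Eif4a2, and voom 0), with Eif2a at 0.41 and Eif4a2 at 0.42. An unadjusted edgeR p under 0.05 was found there for 10 members and for 3224 of the 18212 genes.

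Only Eif1, Eif1b, Eef1d, Eif3e and Eif4a2 kept the call between 10 h and 3 h under every omission of lysates, and the number of calls without 1 lysate was 5 to 12. It was 5 without the 3 h leptin lysate f2 or the wild-type 10 h leptin lysate 2, 6 without the 3 h lysates f1 or f4 or the 10 h leptin lysate 3, and 7 without the 3 h leptin lysate m24.

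In ob/ob against wild type at 10 h, 6 members were higher in depleted RNA and none lower, where 2.72% of all genes were higher and 2.85% lower. Eif1b was 174.1 and 177.8 CPM in the ob/ob vehicle libraries and 183.9 CPM with leptin, against 134.2 CPM with vehicle and 151.9 ± 5.04 CPM (SD, n = 3) with leptin in wild type. These groups did not overlap, and the log2 difference was 0.33 ± 0.05 (edgeR adjusted p = 0.0023). Eif3f was 216.2 to 229.9 CPM in ob/ob and 180.9 to 203.2 CPM in wild type, a difference of 0.24 ± 0.05. Eif5b, Eif3g, Eif1 and Eif2b1 differed by 0.32, 0.24, 0.24 and 0.23. This comparison includes the ob/ob leptin lysate with pituitary transcripts. The ob/ob vehicle lysates, at most 0.716 CPM of Gh, were above every wild-type 10 h depleted library for Eif1b and Eif3f. The part of pituitary RNA in these differences was not tested. Leaving out 1 lysate gave 2 to 7 calls, and Eif1b and Eif3f were called under every omission; without the ob/ob vehicle lysate 1 or the wild-type 10 h leptin lysate 2 only those were left, and without the 3 h lysates m1 or m24 or the 10 h leptin lysate 3 there were 3.

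In beads no member passed between ob/ob and wild type at 10 h (call rate 0.472%, voom 0), but DESeq2 called 1, Eef2kmt, which encodes the methyltransferase of eEF2. An unadjusted edgeR p under 0.05 was found for 4 members and for 1782 of all 18212 genes. Eef2kmt held 2.86, 2.71 and 2.59 CPM in the ob/ob bead libraries and 4.91, 4.82, 4.75 and 4.87 CPM in the wild-type ones, with no overlap. In depleted RNA the values were 3.67, 2.99 and 3.94 CPM against 4.15, 4.37, 4.12 and 4.31 CPM. The edgeR log2 difference in beads was -0.85 ± 0.19 (adjusted p = 0.0707), and it passed without the 3 h vehicle lysate f1.

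The bead-to-depleted ratio itself did not differ past the threshold between strata. Between wild type at 10 h and 3 h no member was called by edgeR, DESeq2 or voom (0.0102% of all genes). An unadjusted edgeR p under 0.05 was found for 11 of 64 members and for 3677 of all 19682 genes. The members' differences were positive for 58 of 64, with a median log2 of 0.18 against 0.00 over all genes. Between ob/ob and wild type none was called by edgeR, DESeq2 or voom either (0.061% of all genes), with a median of -0.08. Here an unadjusted edgeR p under 0.05 was found for 2 of 64 members and for 1525 of all 19682 genes.

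Of the 52 pathway genes outside the family, 3 were lower at 10 h than at 3 h and 0 higher in depleted RNA, and in ob/ob against wild type 5 were higher and 1 lower in depleted RNA and 1 higher in beads, beside the all-gene shares given for these comparisons. Ddit4, an inhibitor of mTORC1 signalling, was higher in ob/ob than in wild type at 10 h in beads (0.69, adjusted p = 0.047) and in depleted RNA (0.74, adjusted p = 0.030). In depleted RNA Dohh was lower at 10 h than at 3 h (-0.29) and higher in ob/ob (0.25), Akt1s1 (-0.20) and Larp1 (-0.17) were lower at 10 h, Paip2b (0.22), Denr (0.19) and Tsfm (0.27) were higher in ob/ob, and Gfm2 was lower (-0.24). In depleted RNA at 3 h, 1 of the 52, Ddx3x, was higher in the lysates lettered f than in those lettered m (0.53, adjusted p = 0.0105).

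The titles of the 3 h lysates carry the letter m or f, and the sex-linked gamma subunits of eIF2 followed it. The first 60 coding bases of both are shown because counts of Eif2s3x and Eif2s3y can be told apart only where they differ (capitals, GRCm38).
Eif2s3x, chrX:94212574-94212633, minus strand: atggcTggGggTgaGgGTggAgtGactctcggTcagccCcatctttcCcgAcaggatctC
Eif2s3y, chrY:1010617-1010676, plus strand: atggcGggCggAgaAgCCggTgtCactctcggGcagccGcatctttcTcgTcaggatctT

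They differed at 13 of these bases and were 86.3% identical over 1416 coding bases. Eif2s3y held 24.36, 24.63 and 29.23 CPM in the 3 bead libraries with m and at most 0.0368 CPM in the 4 with f. Summed over libraries this was 2349 counts against 2 in beads and 3294 against 3 in depleted RNA, ratios of CPM of 1570 (435 to 13000) and 1160 (396 to 5620), where the 95% interval is the exact Poisson interval of the f count and covers counting error only. Eif2s3y was the only member called between f and m (edgeR adjusted p = 6.3e-08 in beads and 2.5e-08 in depleted RNA), where 0.0228% of all genes were higher and 0.0513% lower with f in beads, and 0.0108% higher and 0.027% lower in depleted RNA. An unadjusted edgeR p under 0.05 was found for 15 members and 2558 of 17540 genes in beads. In depleted RNA it was found for 3 members and 471 of 18494 genes. The 7 lysates of 10 h have no letter, and their Eif2s3y values, 5.85 to 14.6 CPM in beads and 7.42 to 13.3 CPM in depleted RNA, lay between both in 7 of 7. The same 7 held the X-linked RNA Xist at 10.2 to 24.8 CPM in beads, against at most 0.119 CPM with m and at least 83.4 CPM with f. The 10 h and 3 h strata thus also differed in sex-linked RNA.

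Eif2s3x was 12.8 to 19.6 CPM in beads with f and 9.39 to 11.8 CPM with m, and 13.0 to 16.3 against 8.00 to 8.56 CPM in depleted RNA, with no overlap in either fraction. The log2 differences of 0.63 and 0.76 did not pass (edgeR adjusted p = 0.275 and 0.084). A further 34.6% of the 50-base windows of Eif2s3x occur in other genes, whereas none of Eif2s3y did.

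**Figure D5:**
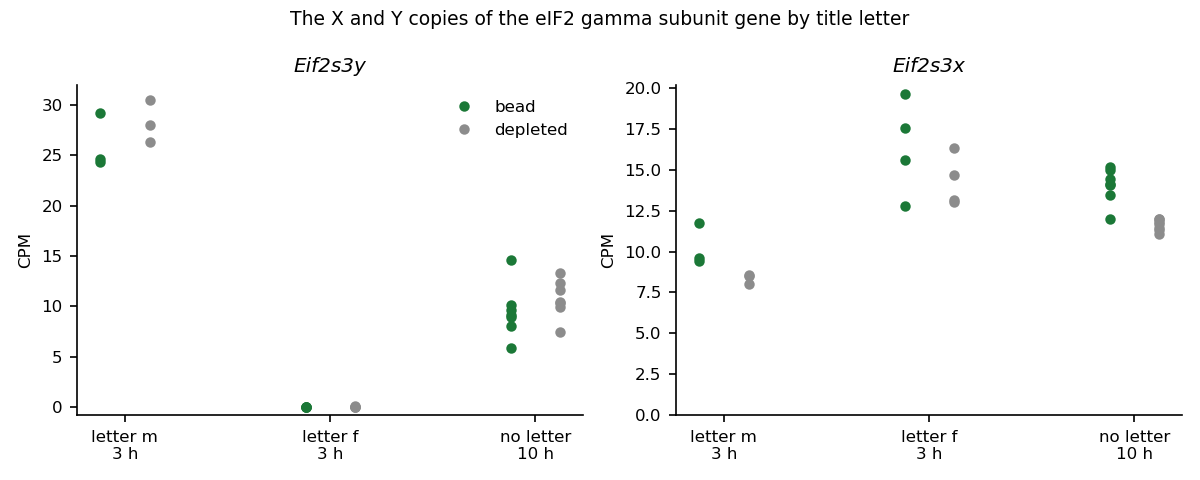
CPM of Eif2s3y and Eif2s3x in bead and depleted RNA of each lysate, by the title letter m or f at 3 h and without a letter at 10 h. For Eif2s3y the f libraries lie at 0 to 0.058 CPM, the m libraries at 24.4 to 30.5 CPM and the others between.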

How the data were processed

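RNA-seq was made from bead and depleted RNA of 14 hypothalamic lysates. Poly(A)-selected libraries were made with a kit that keeps no strand from RNA whose integrity number was 8 or more, and 4 shared a lane of 50-cycle single-end sequencing, per the labels' protocols. The submitters' processing notes name STAR 2.7.6a and the build GRCm38.p6. The authors deposited raw counts of reads per gene as whole numbers for 55487 genes, with no normalization. Which program counted the reads, with which strand setting and annotation, was not given in the sources used here, so reads of overlapping genes, paralogues and pseudogenes may be shared, and exons of 26 members overlap another gene.

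Counts were tested in R 4.3.3 with edgeR 4.0.16 (TMM, robust quasi-likelihood F test, two-sided, Benjamini-Hochberg adjustment over all genes tested, threshold 0.05) on genes that reached 10 counts in 3 or more libraries of the fit. Adjusted p-values come from edgeR unless another tool is named, and SE is the log2 difference divided by the square root of F. Fractions were compared over 28 libraries with the lysate as block, since both come from the same tissue. In 10 lysates that could be checked, departures of both libraries from their group means correlated at r = 0.0694 to 0.282, and 10 of 10 correlated best with their own partner. Groups within a fraction came from 1 fit of 6 groups with 8 residual degrees of freedom, where a group of 1 library is assumed to vary like the rest, and shared leptin effects from a fit with stratum and leptin. Neither fit held the title letter m or f as a term, whereas the fit of f against m at 3 h held leptin. The 10 h effect is the mean of wild type and ob/ob. Nothing says that lysates of a group came from separate animals, so p-values measure the spread between lysates, which may be technical.

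CPM values use TMM-scaled library sizes. Paralogue shares of counts were compared by an exact sign-flip permutation test over lysates (16384 sign flips). Positions and lengths come from GENCODE M21, which holds 55227 of the IDs and all 68 members, and start windows from RefSeq. Shared windows are 50-base stretches of a member's exons found in another gene. Members named were those of the core classes, the 8 largest rises and falls between fractions that held in all 14 lysates, members past a threshold (at most 12 per comparison), the 3 of smallest p in each direction for leptin, and the paralogue sets. The members and lists were chosen with earlier results of these data known. Alternatives were library totals, RLE size factors, no filter, a filter of 50 counts, DESeq2 1.42.0, limma voom 3.58.1, a glial covariate, no lysate block, vehicle lysates alone, omission of each lysate, omission of lysates m3 and f2, and, chosen after seeing the data, omission of these and the ob/ob leptin lysate. Scripts used Python 3.11.15 with numpy 2.4.6, pandas 2.3.3, scipy 1.17.1 and matplotlib 3.10.9, and the tests were tested on simulated data.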

Additional observations from a re-analysis of the deposited data

Results flagged for a closer look

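In the 4 wild-type 3 h vehicle lysates, 3 values stood apart from the other 3 by more than Dixon's 95% limit, of 46 groups looked at (23 named members in both fractions), where chance gives about 1 in 20. Eef1g in beads was 80.25 CPM in lysate f1 and 115.3 to 118.6 CPM in the others. Eef1a2 in beads was 1261 CPM in the same lysate and 1478 to 1516 CPM in the others. Eif5a in depleted RNA was 314.2 CPM in lysate f3 and 289.7 to 291.8 CPM in the others. Lysate f1 also had the highest bead glial index, 5.26, and the part of glial RNA in its values was not tested.

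The bead-to-depleted difference had opposite signs in all lysates of a pair of strata for 2 members. No share over all genes is given beside this count, so it does not set the members apart. Eef2kmt averaged 0.19 (log2) in wild type at 10 h and -0.37 in ob/ob, and the test of that difference gave -0.63 ± 0.21 (edgeR adjusted p = 0.53), which did not pass. Eif3a averaged 0.19 in wild type at 3 h and -0.06 in ob/ob, and this pair of strata was not tested.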

How the results depend on the processing

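Between fractions, 44 to 52 members were higher in beads under the alternatives other than library totals (41) and 48 to 53 when a lysate was left out. The number lower was 11 under library totals and 5 to 6 when a lysate was left out. Without the lysate as replicate block the counts were 52 higher and 5 lower, and the paired contrasts of ratio and leptin kept 0 calls. Reversed signs were Eif4g2 (-0.0727) and Eif4e2 (-0.0572) between fractions under library totals, Eif4g1 in the leptin difference between fractions (0.0368), Eif5a under leptin at 10 h in beads (-0.0420) and Eef2k under shared leptin in beads (0.0270) with the glial covariate, and Eif5a2 in the leptin difference between fractions (-0.0996 to 0.0175 when a lysate was left out, positive without the wild-type 10 h vehicle lysate). Without lysates m3 and f2 and the ob/ob leptin lysate, signs also turned for Eef2kmt in the leptin difference between fractions (0.00818) and Eif4ebp1 under shared leptin in beads (0.0836). The cause was not tested. The Eif4g2 share difference ran from -3.281 to -2.122 points when a lysate was left out, and in 6 of 14 omissions its p rose above 0.05.

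For leptin, 1 member was called in beads at 3 h and 1 for the shared effect without lysates m3 and f2, and 1 for the shared effect with no filter (each Eif1a). In depleted RNA 1 was called with no filter at 3 h and 1 for the shared effect (each Eif2s3y), and 1 for the shared effect by DESeq2 (Eif4g2). Eif2s3y followed the title letter, which was not balanced between leptin and vehicle lysates at 3 h and was not in these fits. Its calls therefore cannot be told apart from the letter. Between 10 h and 3 h, DESeq2 called 2 members in beads, and depleted RNA had 7 calls without lysates m3 and f2, 7 without these and the ob/ob leptin lysate, and 5 to 12 when a lysate was left out. Between ob/ob and wild type, DESeq2 called 1 in beads (0 to 1 when a lysate was left out), and depleted RNA had 2 to 7 calls. Contrasts that need the only wild-type 10 h vehicle lysate or the only ob/ob leptin lysate could not be estimated without it. For single members between fractions, 584 alternatives kept sign and call, 12 lost the call and 2 turned the sign. Depth limits members under 1 CPM.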
